A study of Mus musculus with 10 samples.

Results

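Sugars enter and leave the cells of the small intestine through transporters, and the messenger RNA of 5 of these transporters and of 1 enzyme was followed here in the jejunum of newborn mice. The genes were taken by symbol from the count table of each library: Slc5a1, Slc2a1, Slc2a2, Slc2a3, Slc2a5 and Khk. All 6 were found among the 24062 gene rows, and all 6 had enough reads to be tested among 17632 genes. Jejunum of 5 wild-type (WT) and 5 KSR23 libraries was compared, all from mice of the C57BL/6 strain at postnatal day 5. KSR23 mice carry an IL-23 cassette (subunits p19 and p40) at ROSA26 that stays silent until cre, here under the keratin 14 promoter, removes a floxed STOP, so that keratinocytes and not gut cells are the intended source of the cytokine. The labels give the WT animals no allele, and littermates usually served as controls, per the study's methods. The comparison asks whether the genes of food absorption differ in the intestine when IL-23 is raised in early life.

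An enterocyte takes up glucose and galactose from the lumen with sodium through SGLT1, the product of Slc5a1, and takes up fructose through GLUT5, the product of Slc2a5. GLUT2, the product of Slc2a2, lets all of these sugars pass and is best known as the exit to the blood. GLUT1 and GLUT3, from Slc2a1 and Slc2a3, are high-affinity glucose carriers of many cell types, and ketohexokinase, from Khk, phosphorylates fructose as the first step of its breakdown. In a suckling mouse the main sugar of the diet is lactose, which yields glucose and galactose, and fructose is scarce before weaning.

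The promoters of the genes for uptake at the lumen and for exit to the blood are shown because their transcripts moved in opposite directions. Both runs are the 250 bases before the start of the gene, 5′ to 3′ on the plus strand, from RefSeq (GRCm38.p6). That of Slc5a1 lies at chr5:33103969-33104218 and that of Slc2a2 at chr3:28697653-28697902. Capitals mark the one motif match found.
Slc5a1: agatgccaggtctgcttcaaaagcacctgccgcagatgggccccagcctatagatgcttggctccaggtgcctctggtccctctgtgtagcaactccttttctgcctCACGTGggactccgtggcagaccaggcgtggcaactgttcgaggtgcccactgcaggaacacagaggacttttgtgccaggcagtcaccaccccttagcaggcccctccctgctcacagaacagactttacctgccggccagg
Slc2a2: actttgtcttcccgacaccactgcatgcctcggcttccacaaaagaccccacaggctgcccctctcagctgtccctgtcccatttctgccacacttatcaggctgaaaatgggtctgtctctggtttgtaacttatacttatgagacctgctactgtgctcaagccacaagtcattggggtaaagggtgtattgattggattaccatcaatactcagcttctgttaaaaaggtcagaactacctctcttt
Both strands of the window of 250 bases before the start in RefSeq were searched. The motifs were the STAT motif TTCNNNGAA, the E-box CACGTG and the HIF core ACGTG, which also lies inside the E-box. The HNF1 half-site GTTAAT, the GATA motif AGATAA, the TATA box TATAAA and the GC box GGGCGG were searched as well. The Slc5a1 promoter held CACGTG at bases -143 to -138 from its start. Of 32851 promoters in the table, 6.021% held these letters and 16.572% held ACGTG. The Slc2a2 window held none of the letters searched. The window of Khk, whose transcript fell, also held CACGTG, and that of Slc2a1, whose transcript rose, held ACGTG and not CACGTG. Both windows held the GC box (32.742% of promoters), and that of Khk the HNF1 half-site (6.432%). For both of these genes, however, the start in RefSeq lies downstream of that in GENCODE.

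Libraries held 25.5 M to 60.9 M counts, with a mean of 29.0 M in WT and 43.2 M in KSR23. The share of tallied alignments given to no single gene, most of them placed at several sites, was 31.5% to 35.2% in WT and 27.9% to 30.6% in KSR23, ranges that do not overlap, and its part in the differences between the groups was not tested. Il12b, which encodes p40, had 0 to 5 counts in each WT and 9 to 40 in each KSR23 library, and Il23a, which encodes p19, had 1 to 14 and 8 to 34. Replicates 4 and 5 of both groups stood apart from the other libraries. Random order would put any library at the top or bottom of its group of 5 at 40% of genes. These 4 libraries held such a place at 12.4% to 21.4% of 13181 genes and the other 6 at 45.1% to 70.2%. Levels are given in CPM, counts per 1 M counts of a library after TMM scaling of the library sizes. How these libraries came to lie between the others is not given in the sources used here and was not tested, and each p over 5 libraries takes them as separate samples. For this reason the fold change of each of the 6 genes is also given for replicates 1 to 3 alone. Messenger RNA of whole jejunum was measured, so fewer cells of a type and less RNA per cell cannot be told apart.

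In KSR23 jejunum the transcript of the luminal glucose and galactose carrier (Slc5a1) and that of GLUT1 (Slc2a1) were higher, and the transcripts of GLUT2 (Slc2a2) and ketohexokinase (Khk) were lower. Slc2a1 differed most, 6.64-fold on the fitted scale, and Slc2a2 was 3.50-fold lower. The transcript of the fructose carrier (Slc2a5) had the same mean in both groups, and Slc2a3 was low in both. By edgeR's likelihood ratio test 4 of the 6 genes passed an adjusted p of 0.05 (Benjamini-Hochberg over all genes), where 18.5% of all genes tested passed. Of the 6, 2 were higher and 2 lower, against 9.73% and 8.76% of all genes. With the stricter quasi-likelihood F test the same 4 genes passed, against 15.4% of all genes. With replicates 1 to 3 alone only Slc2a1 passed either test, where 3.36% of all genes passed the likelihood ratio test and 0.812% the quasi-likelihood F test.

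**Figure D1:**
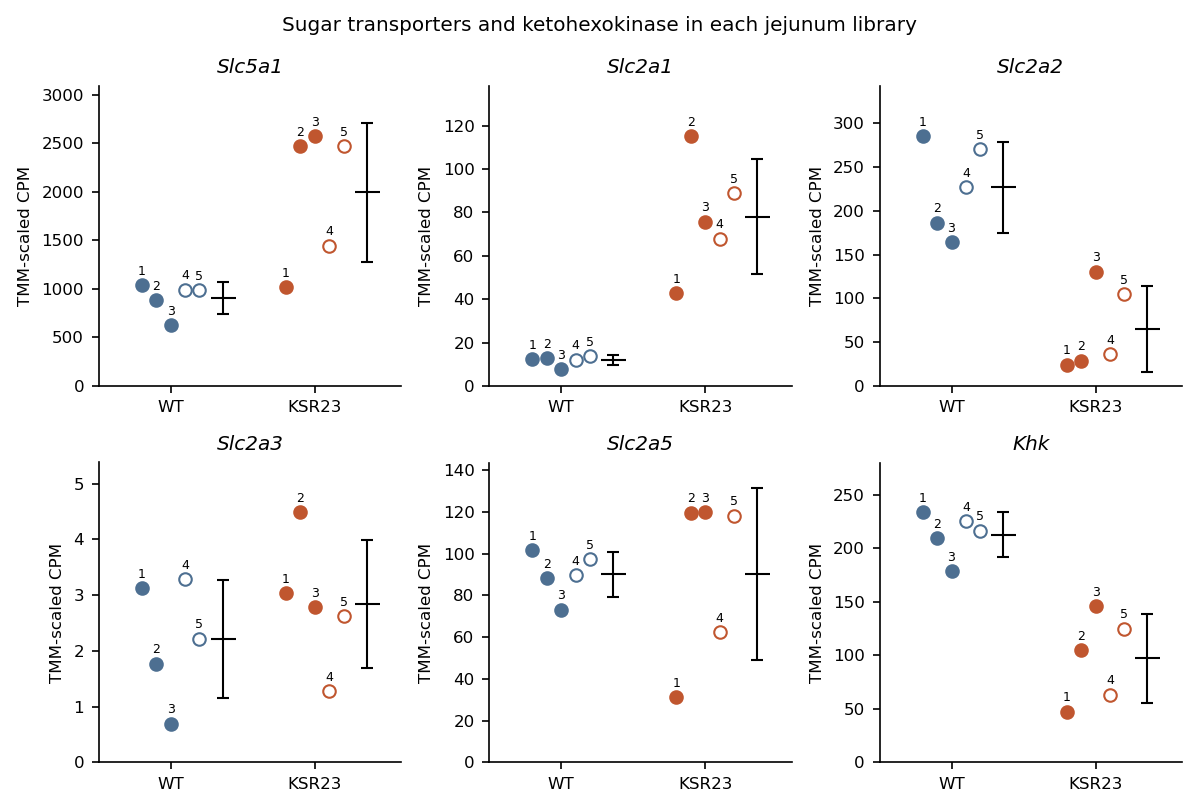
Level of each of the 6 genes in each jejunum library, in CPM, on linear axes from 0. Points are libraries numbered by replicate (open: replicates 4 and 5), and the bar beside each group is the mean ± SD of 5 libraries. The KSR23 points of Slc2a1 lie above, and those of Slc2a2 and Khk below, all WT points, and those of Slc2a5 lie on both sides of WT.

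Slc5a1 lies on chromosome 5 (mm10, 33104219 to 33162870, plus strand) and is the gene of the sodium-coupled carrier SGLT1. The WT libraries, in the order of their replicate numbers 1 to 5, stood at 1036, 882, 628, 991 and 986 CPM, the KSR23 libraries at 1018, 2469, 2574, 1442 and 2469.6 CPM. Of the KSR23 libraries 4 were above every WT library, and KSR23 replicate 1 lay inside the WT range. The mean was 904 ± 165 CPM (SD, n = 5) in WT and 1995 ± 715 CPM (SD, n = 5) in KSR23. The log2 fold change was 1.14 (SE 0.309), with an adjusted p of 0.00316 by edgeR's likelihood ratio test and 0.0191 by its quasi-likelihood F test. Replicates 1 to 3 alone gave a log2 fold change of 1.29, with a likelihood ratio adjusted p of 0.217.

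Slc2a2, on chromosome 3 (mm10, 28697903 to 28731359, plus strand), encodes GLUT2. In WT replicates 1 to 5 it was at 285, 186, 164, 227 and 270.0 CPM. In KSR23 replicates 1 to 5 it was at 24.1, 28.7, 130.3, 36.3 and 104.8 CPM. The groups did not overlap, and KSR23 replicates 3 and 5 were closest to WT. CPM of the groups did not overlap for 3 of the 6 genes (Slc2a1, Slc2a2 and Khk) and for 14.4% of all genes tested. The mean of Slc2a2 fell from 227 ± 52.0 to 64.8 ± 49.1 CPM (SD, n = 5 each), a log2 fold change of -1.81 (SE 0.464). In edgeR the adjusted p was 0.00212 (likelihood ratio) and 0.0209 (quasi-likelihood F), and 0.197 by the first of these with replicates 1 to 3 alone (log2 fold change -1.76). The annotation has an antisense transcript, 1700112D23Rik, over Slc2a2, and of 5752 stretches of 75 bases in the exons of Slc2a2 it shares 0.

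Slc2a1, on chromosome 4 (mm10, 119108711 to 119137983, plus strand), encodes GLUT1, the glucose carrier of the blood-brain barrier, made by many cells that live on glycolysis. It was at 12.3, 12.9, 7.82, 12.2 and 13.7 CPM in WT replicates 1 to 5. It was at 42.8, 115, 75.8, 67.8 and 88.8 CPM in KSR23 replicates 1 to 5. The lowest KSR23 library was well above the highest WT library. The mean was 11.8 ± 2.28 CPM in WT against 78.1 ± 26.7 CPM in KSR23 (SD, n = 5 each), and the log2 fold change was 2.73 (SE 0.319). In edgeR the likelihood ratio test gave an adjusted p of 1.27e-13 and the quasi-likelihood F test one of 7.98e-05. Replicates 1 to 3 alone gave a log2 fold change of 2.86, with adjusted p of 3.81e-04 and 0.0479 by the same edgeR tests. In Slc2a1, 0.834% of 75-base stretches were shared with another gene, its antisense neighbour Gm12868.

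Slc2a3, on chromosome 6 (mm10, 122727809 to 122801640, minus strand), encodes GLUT3, the carrier of neurons and some leukocytes. Few reads were found: 19 to 114 counts in a WT library and 70 to 213 in a KSR23 library. This gave 3.13, 1.77, 0.697, 3.28 and 2.22 CPM in the 5 WT libraries, in order, and in those of KSR23 it gave 3.03, 4.48, 2.78, 1.28 and 2.63 CPM. The groups overlapped widely. The log2 fold change was 0.35 with a 95% interval of -0.54 to 1.24 (edgeR likelihood ratio adjusted p = 0.658), an interval that still holds the change seen for Slc5a1. Replicates 1 to 3 alone gave 0.92 (adjusted p = 0.632).

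The fructose pathway was covered by Slc2a5 and Khk. Slc2a5, on chromosome 4 (mm10, 150119283 to 150144169, plus strand), encodes GLUT5, the carrier that moves fructose and hardly any glucose. It was at 101.6, 88.2, 73.1, 89.6 and 97.4 CPM in WT replicates 1 to 5, while KSR23 replicates 1 to 5 had 31.2, 119, 119.6, 62.2 and 118 CPM. Of the KSR23 libraries 3 lay above every WT library and 2, replicates 1 and 4, lay below every WT library. The means were 90.0 ± 10.95 CPM in WT against 90.1 ± 41.1 CPM in KSR23 (SD, n = 5 each), and the log2 fold change was 0.00 with a 95% interval of -0.71 to 0.71. The interval leaves room for a change of either sign, and the sign of the estimate turned with the scaling of the libraries (-0.150 without TMM factors). Replicates 1 to 3 alone gave 0.08 (edgeR likelihood ratio adjusted p = 0.982).

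Khk lies on chromosome 5 (mm10, 30921431 to 30931248, plus strand), and its product traps fructose in the cell as fructose 1-phosphate. It was at 234, 209, 179, 225 and 217 CPM in WT replicates 1 to 5. It was at 47.3, 104.8, 146, 63.3 and 125 CPM in KSR23 replicates 1 to 5. All KSR23 libraries were below all WT libraries, with replicates 1 and 4 the lowest, as for Slc2a5. The mean fell from 213 ± 21.1 to 97.3 ± 41.5 CPM (SD, n = 5 each), a log2 fold change of -1.13 (SE 0.323). The adjusted p was 0.00563 by edgeR's likelihood ratio test, 0.0212 by its quasi-likelihood F test and 0.423 by the likelihood ratio test with replicates 1 to 3 alone (log2 fold change -1.02). Counts of Slc2a5 stood at 0.398 to 0.449 of those of Khk in the WT libraries and at 0.661 to 1.14 in the KSR23 libraries. This ratio was formed after the values of both genes had been seen and was not tested.

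Spread within the groups was larger in KSR23 for 5 of the 6 genes. The share of all genes with the larger spread in KSR23 was not counted. The coefficient of variation of CPM in WT was 18.2% for Slc5a1, 19.4% for Slc2a1, 23.0% for Slc2a2, 12.2% for Slc2a5 and 9.91% for Khk. In KSR23 it was 35.8%, 34.2%, 75.8%, 45.6% and 42.6% in the same order. For Slc2a3 it was 47.7% in WT and 40.3% in KSR23. WT replicate 3 was the lowest WT library for all 6 genes, and KSR23 replicate 1, the most deeply sequenced library, was the lowest KSR23 library for 5 of the 6. After the group means of log2 CPM were subtracted, Slc5a1 and Slc2a5 moved together over the 10 libraries (Pearson r = 0.959), and so did Slc2a5 and Khk (r = 0.950) and Slc5a1 and Khk (r = 0.946). Slc2a2 followed Slc5a1 less closely (r = 0.699), and Slc2a2 and Slc2a1 were further apart (r = 0.351). These are descriptions over libraries that share a group's treatment and the intermediate position of replicates 4 and 5.

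Ratios of the counts of 2 genes inside a library do not depend on its depth or scaling. Beside that of Slc2a5 over Khk, 3 ratios were formed and tested, and in each of them the 5 KSR23 libraries lay above the 5 WT libraries. They were chosen with the changes of these genes known, and the ratio of Slc5a1 over Slc2a2 sets a gene called higher over one called lower, so their p-values restate those changes and are no separate support. Counts of Slc5a1 were 3.63, 4.73, 3.82, 4.37 and 3.65 times those of Slc2a2 in WT replicates 1 to 5. They were 42.3, 85.9, 19.8, 39.7 and 23.6 times those of Slc2a2 in KSR23 replicates 1 to 5. The mean log2 ratio rose from 2.01 ± 0.17 to 5.20 ± 0.83 (SD, n = 5 each), a difference of 3.19 (two-sided exact permutation test, p = 0.00794, adjusted over the 3 ratios tested p = 0.00794). This is the smallest p that 5 against 5 libraries can give.

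Counts of Slc2a5 were 0.356, 0.473, 0.444, 0.395 and 0.361 of those of Slc2a2 in the WT libraries, in order, and 1.30, 4.16, 0.919, 1.71 and 1.13 times those of Slc2a2 in KSR23 replicates 1 to 5. Per kb of exons Slc2a5 was below Slc2a2 in all 5 WT libraries and above it in all 5 KSR23 libraries. The mean log2 ratio was -1.31 ± 0.18 in WT against 0.65 ± 0.85 in KSR23 (SD, n = 5 each), a difference of 1.961 (exact permutation test, p = 0.00794, adjusted p = 0.00794). Counts of Slc5a1 over those of Slc2a5 gave 10.2, 9.99, 8.59, 11.1 and 10.1 in the WT libraries and 32.6, 20.7, 21.5, 23.2 and 20.9 in KSR23 replicates 1 to 5. This was the tightest of the 3 ratios, although both genes varied widely in KSR23. The mean log2 ratio was 3.32 ± 0.13 in WT against 4.55 ± 0.27 in KSR23 (SD, n = 5 each), a difference of 1.23 (exact permutation test, p = 0.00794, adjusted p = 0.00794). With replicates 1 to 3 alone the differences were 3.37, 2.02 and 1.35, and there the exact permutation test cannot give a p below 0.100.

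**Figure D2:**
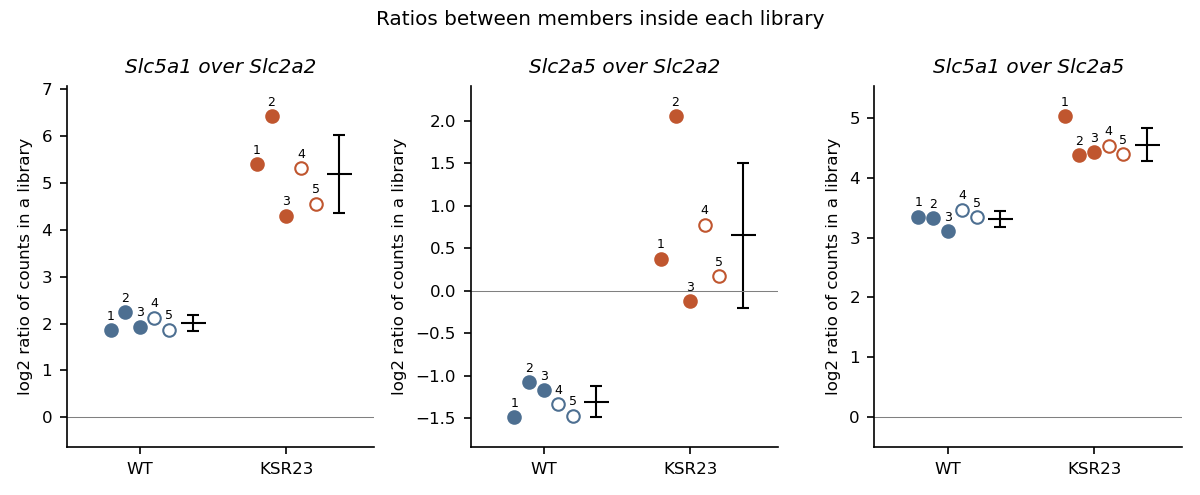
Log2 ratio of the counts of a pair of genes inside each library, for Slc5a1 over Slc2a2, Slc2a5 over Slc2a2 and Slc5a1 over Slc2a5. Points are libraries numbered by replicate (open: replicates 4 and 5), the bar beside each group is the mean ± SD of 5 libraries, and the grey line marks equal counts. All KSR23 points lie above all WT points in each panel.

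Levels of different genes were compared as CPM per kb of merged exons. In WT the order of mean level was Slc5a1 (220 ± 40.1 CPM per kb), Khk (124 ± 12.3), Slc2a2 (40.7 ± 9.35), Slc2a5 (28.5 ± 3.47), Slc2a1 (3.61 ± 0.70) and Slc2a3 (0.56 ± 0.27), each as mean ± SD of 5 libraries. Only the ranges of Slc2a2 and Slc2a5 overlapped among neighbours in this order, and Slc2a2 was the higher in all 5 WT libraries. In KSR23 the order was Slc5a1 (486 ± 174 CPM per kb), Khk (56.6 ± 24.1), Slc2a5 (28.5 ± 13.0), Slc2a1 (24.0 ± 8.19), Slc2a2 (11.6 ± 8.82) and Slc2a3 (0.72 ± 0.29). The ranges of Khk and Slc2a5, of Slc2a5 and Slc2a1, and of Slc2a1 and Slc2a2 overlapped. Slc2a1 was above Slc2a2 in 4 of the 5 KSR23 libraries, whereas in WT it spanned 2.40 to 4.19 CPM per kb against 29.5 to 51.3 for Slc2a2.

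Of the CPM per kb summed over 21 sugar transporter genes, Slc5a1 made up 49.4% to 57.3% in the WT and 68.9% to 80.3% in the KSR23 libraries. The share of Slc2a2 was 8.88% to 11.5% in WT and 0.689% to 2.77% in KSR23. That of Slc2a5 was 6.74% to 7.47% in WT and 2.75% to 5.05% in KSR23, and that of Slc2a1 was 0.774% to 1.05% in WT and 2.75% to 4.72% in KSR23. Slc50a1, which encodes the sugar carrier SWEET1, held the second largest mean share in both groups, at 11.1% to 16.5% in WT and 4.85% to 7.86% in KSR23. The ranges of these 5 transporters did not overlap between the groups. Nor did those of Slc5a11 (4.47% to 5.97% in WT and 1.46% to 3.73% in KSR23) or of Slc5a4a and Slc5a2, both at very low counts. The ranges of the remaining transporters overlapped, those of Slc2a3 among them (0.057% to 0.197% and 0.067% to 0.212%). A share of Slc2a5 falls when Slc5a1 rises, also with a level that stays where it was, and the shares were not tested.

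**Figure D3:**
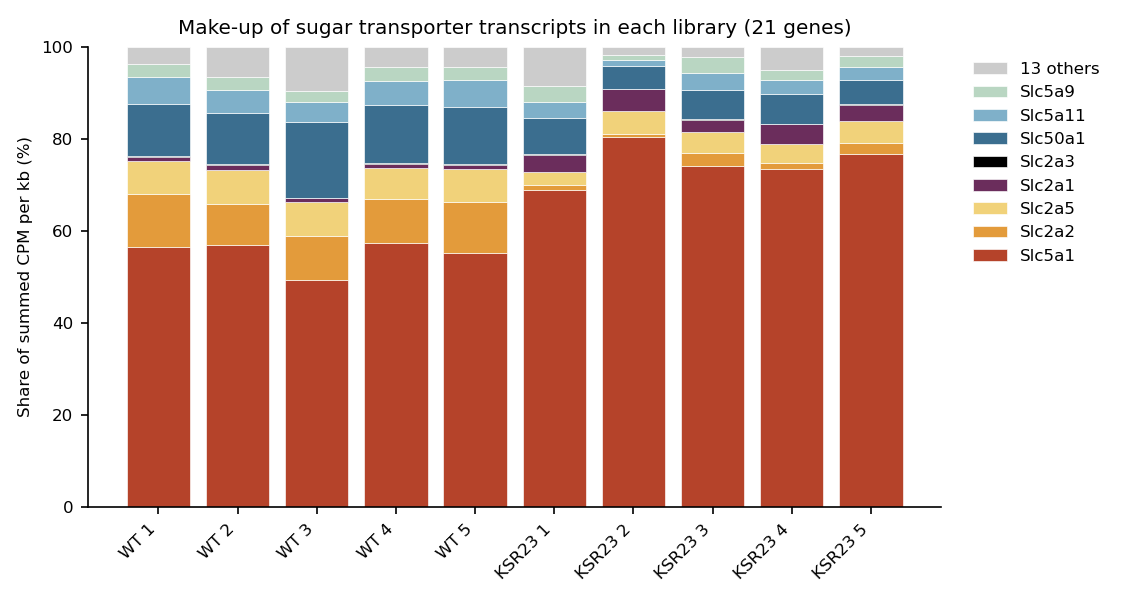
Share of each transporter in the CPM per kb of merged exons summed over 21 sugar transporter genes, for each library. The colours stand for 8 transporters and the grey top for the other 13 together. The Slc5a1 part spans 49.4% to 57.3% in WT and 68.9% to 80.3% in KSR23, and the Slc2a2 part shrinks to between 0.689% and 2.77% in KSR23.

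Of 16 other sugar transporters tested, 1 rose and 1 fell by the likelihood ratio test, against 9.73% and 8.76% of all genes, and the median log2 fold change was 0.29, against 0.03 over all genes. Slc5a4a, a relative of SGLT1, had 10 to 25 counts in a WT and 0 to 5 in a KSR23 library (log2 fold change -3.49, SE 0.728, edgeR likelihood ratio adjusted p = 1.88e-05, with replicates 1 to 3 alone 0.0188, and 0.259 there by the quasi-likelihood F test). Slc5a2, which encodes the kidney carrier SGLT2, had 1 count over all WT libraries and 18 over all KSR23 libraries, too few for a fold change. It passed the likelihood ratio test (adjusted p = 0.0182) and not the quasi-likelihood F test (adjusted p = 0.0606). Slc2a7, the closest neighbour of Slc2a5 on chromosome 4, was at 5.87 ± 1.68 CPM in WT against 7.28 ± 3.16 CPM in KSR23 (SD, n = 5 each; log2 fold change 0.31, edgeR adjusted p = 0.637). Slc50a1 was at 51.2 ± 4.93 and 39.1 ± 10.3 CPM (log2 fold change -0.39, edgeR adjusted p = 0.352).

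Of 6 other listed genes of fructose metabolism, 5 were tested. Among these 0 passed edgeR's likelihood ratio test, its quasi-likelihood F test or DESeq2, with 1 at an unadjusted p under 0.05. The triokinase gene Tkfc, listed as Dak, was at 66.4 ± 19.5 and 74.2 ± 29.1 CPM (log2 fold change 0.16, edgeR adjusted p = 0.814). Of the fructose genes tested, Slc2a5 and Khk included, only Khk passed. That share is not far from the 18.5% of all genes that passed the likelihood ratio test. Of 7 genes of galactose breakdown, 2 rose and the other 5 did not pass, where 9.73% of all genes rose. One of these, Pgm1, a symbol that has been used for more than 1 phosphoglucomutase gene, rose by 1.146 on the log2 scale (edgeR adjusted p = 0.00362). It did not pass with replicates 1 to 3 alone (adjusted p = 0.330).

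Of 18 listed genes that hold glucose in the cell and break it down, 8 rose by the likelihood ratio test and 10 did not pass (7 rose by the quasi-likelihood F test), with a median log2 fold change of 0.90. Of all genes 9.73% rose, and their median was 0.03. Hk2, a hexokinase, rose from 5.53 ± 0.740 to 32.4 ± 7.94 CPM (SD, n = 5 each; log2 fold change 2.55, SE 0.289, edgeR adjusted p = 9.11e-15) and also passed with replicates 1 to 3 alone (adjusted p = 8.99e-04), the only one of the 18 to do so. Among the others that rose were Pkm (pyruvate kinase, log2 fold change 1.61), Hkdc1 (a hexokinase domain protein, 1.46), Pfkp (phosphofructokinase, 1.41), Pgk1 (phosphoglycerate kinase, 1.11) and Ldha (lactate dehydrogenase, 1.08). Of the 3 genes that release free glucose from glucose 6-phosphate, 2 fell, against 8.76% of all genes. Slc37a4, the carrier of glucose 6-phosphate into the endoplasmic reticulum, fell from 449 ± 52.1 to 171 ± 52.6 CPM (SD, n = 5 each; log2 fold change -1.39, edgeR adjusted p = 8.82e-06). G6pc, the glucose 6-phosphatase, fell from 429.5 ± 46.4 to 219 ± 99.5 CPM (log2 fold change -0.97, edgeR adjusted p = 0.0186), and did not pass without WT replicate 4 or 5 or without KSR23 replicate 1, 2 or 4 (adjusted p = 0.0517 to 0.0809). Neither passed with replicates 1 to 3 alone.

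**Figure D4:**
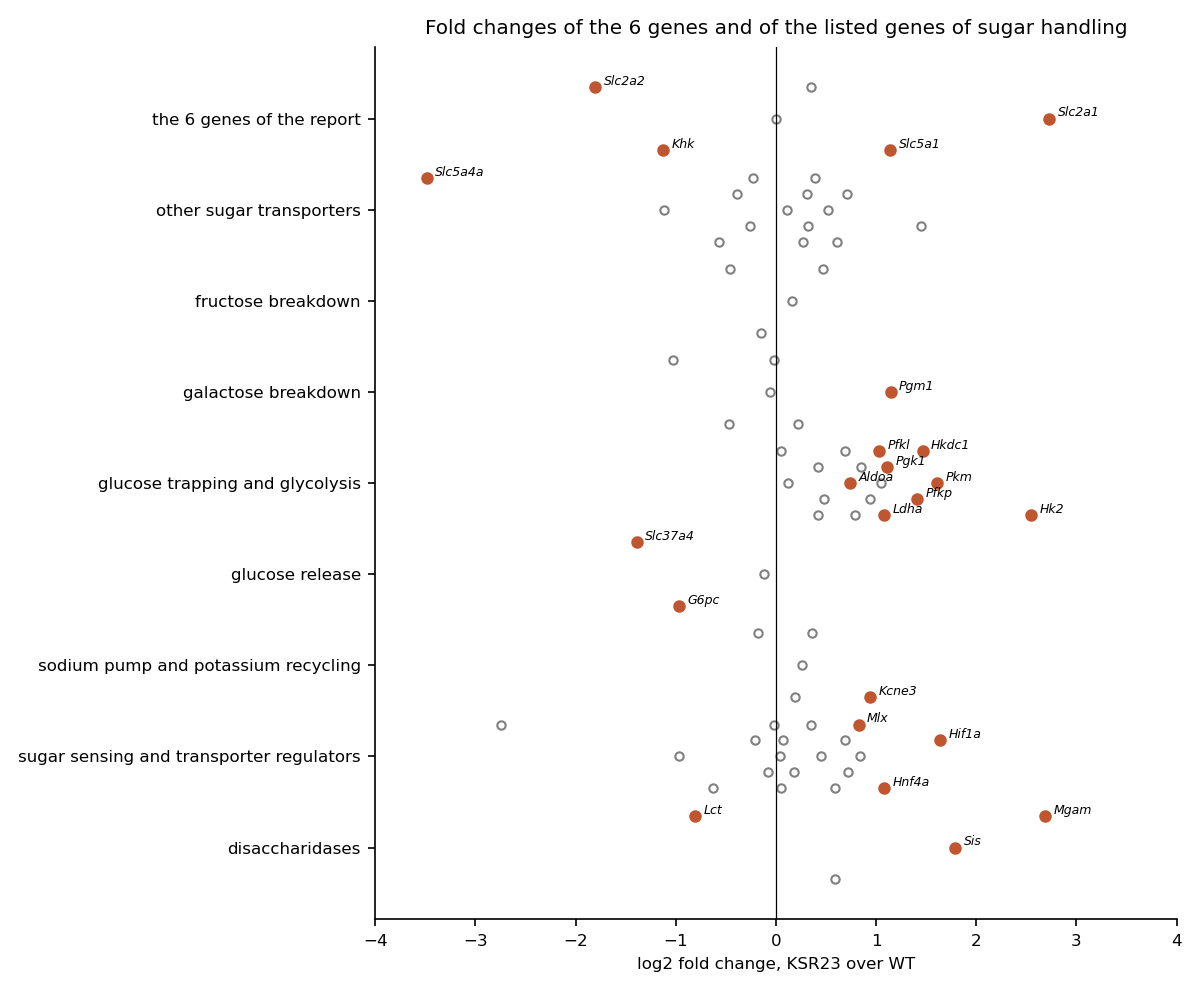
Log2 fold change, KSR23 over WT, of the 6 genes and of the genes of 8 lists of sugar handling that were tested, 1 point a gene, spread vertically within a list for legibility. Filled points passed edgeR's likelihood ratio test at an adjusted p of 0.05, and Slc5a2, with 1 count over the WT libraries, is not drawn, nor are genes not reported here. In the glycolysis list all 8 filled points lie to the right of 0, and in the glucose release list both lie to the left.

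SGLT1 runs on the sodium gradient that the sodium pump keeps up. Of 6 genes of the pump and of potassium recycling only Kcne3, a potassium channel subunit, rose (log2 fold change 0.94, edgeR adjusted p = 0.0165, and 0.0514 without WT replicate 3 or 0.0689 without KSR23 replicate 5). Of 19 tested genes of sugar sensing and transporter regulation 3 rose and 16 did not pass, a share not far from the 9.73% of all genes that rose. Those 3 were Hif1a (the hypoxia factor subunit, log2 fold change 1.64, edgeR adjusted p = 0.00895), Hnf4a (a nuclear receptor of enterocytes and liver, 1.08, edgeR adjusted p = 0.00281) and Mlx (the partner of the sugar-sensing factor ChREBP, 0.83, edgeR adjusted p = 0.0256). Mlx did not pass without WT replicate 2, 3 or 5 or without KSR23 replicate 2 or 5 (adjusted p = 0.0515 to 0.0918). Txnip, a sugar-responsive gene whose product holds GLUT1 back, was at 224 ± 22.4 and 253 ± 44.2 CPM (log2 fold change 0.18, edgeR adjusted p = 0.672). None of the pump or sensing genes passed with replicates 1 to 3 alone. Of 4 disaccharidase genes, whose products set the sugars that reach these carriers free, Mgam (log2 fold change 2.69) and Sis (1.79) rose, Treh (0.59) did not pass, and Lct fell by 0.81 on the log2 scale (edgeR adjusted p = 0.0442, and 0.0627 with the quasi-likelihood F test). Leaving out any library but WT replicate 3 or KSR23 replicate 3 ended the call of Lct (adjusted p = 0.0661 to 0.152). With replicates 1 to 3 alone Mgam passed edgeR's likelihood ratio test (adjusted p = 7.22e-04) and not its quasi-likelihood F test (0.0554), and Sis passed neither (0.130 and 0.253). Of all genes 9.73% rose and 8.76% fell.

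Markers of the cells that could carry these transporters were read beside them. The summed CPM of 7 epithelial markers was 1614 to 4310 in the WT and 4169 to 7027 in the KSR23 libraries, ranges that overlap. Of the 7, Krt20 (log2 fold change 2.22) rose by both edgeR tests, from 359 ± 29.1 to 1674 ± 777 CPM (SD, n = 5 each), and Cdh1 (1.11) by the likelihood ratio test but not the quasi-likelihood F test (adjusted p = 0.0572). The other 5 did not pass, with log2 fold changes from -0.44 (Epcam) and -0.17 (Cdx1) to 0.68 (Vil1) and 0.83 (Krt8). The part of these differences in the levels of the 6 genes was not tested. Slc2a2 is also made in liver and in beta cells. Of 5 liver markers Ttr, at 484 ± 145 CPM in WT (log2 fold change -3.79), Serpina1a, at 250.02 ± 54.6 CPM (-4.96), and Alb, at 1.98 ± 1.10 CPM (-2.16), were lower in KSR23 by the likelihood ratio test, and the other 2 did not pass. Alb failed the quasi-likelihood F test (adjusted p = 0.0938). By the likelihood ratio test 9.73% of all genes rose and 8.76% fell. The liver markers summed to 436 to 943 CPM in WT and 9.38 to 73.4 CPM in KSR23. Nearly all of the WT sum was Ttr and Serpina1a, and Ahsg was at 1.66 and Apoh at 0.838 CPM in WT. Of the beta cell markers Ins2 was at 0.121 ± 0.090 CPM in WT, and Ins1, Slc30a8 and G6pc2 did not reach 5 counts in any library. The part of these cells in the lower Slc2a2 was not tested. Of markers of the proximal small intestine, the sum was 890 to 1470 CPM in WT and 1212 to 2104 CPM in KSR23, most of it Slc40a1, the iron exporter of the duodenum and other tissues (1003 ± 242 CPM in WT). Distal markers summed to 0.318 to 7.67 CPM over all libraries. These sums do not tell jejunum from duodenum, and Cybrd1, another proximal marker, fell in KSR23 (log2 fold change -1.71).

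For each of the 6 genes the most similar genes were found by Pearson r of log2 CPM over the 10 libraries, among 13181 genes with 5 or more counts in every library. For Slc5a1 these were Eef2 (r = 0.996), Cldn15 (r = 0.995) and Nop2 (r = 0.993), and r stayed between 0.981 and 0.998 after the group means were subtracted. For Slc2a1 they were Sh3bgrl2, Mvp and Gm11545 (r = 0.992 to 0.993, and 0.901 to 0.903 within groups). For Slc2a2 they were Aadac (r = 0.992), Nsun4 (r = 0.991) and Fam13a (r = 0.987). For Khk they included Acaa2, a thiolase of fatty acid oxidation (r = 0.997) and Acbd4 (r = 0.994). Among the genes most like Slc2a5 were Wipf2 (r = 0.970) and Rab30 (r = 0.965), and Slc2a3 had no gene above r = 0.879 (Ggta1). With 10 libraries in 2 groups and 13181 genes, high values of r are common, and no p is given.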

How the data were processed

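Jejunum of 5 WT and 5 KSR23 mice was profiled by RNA-seq. Total RNA was primed with oligo-dT and amplified (SMART-Seq v4, Nextera XT), with no molecular identifiers. Per the labels and the study's methods the authors aligned single-end reads to mm10 with TopHat2 (2.1.0) and deposited counts per gene from htseq-count (HTSeq 0.6.1p1, strict intersection). The strand setting is not given in the sources used here. Reads counted to gene rows only were used, and the depth was 25.5 M to 60.9 M counts.

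The 6 genes, the lists and the ratios were chosen with earlier results of these data known. Genes with at least 5 counts in at least 1 library were tested with the likelihood ratio test of edgeR (4.0.16) after TMM scaling, with group as the only term, after the study's own test, and Benjamini-Hochberg adjustment. The quasi-likelihood F test is given beside it. SE and 95% intervals come from the fit. Log2 CPM used a prior count of 2. Ratios were log2 of counts plus 0.5, compared with a two-sided exact permutation test (scipy 1.17.1). DESeq2 (1.42.0) was one alternative. The fits were tested on simulated data. Named genes were the 6 genes, up to 6 passing genes a list by size of change, and the 3 most similar genes of each, of which some are not reported here. Other listed genes were named after their values were seen. Replicates are separate samples in the labels, and the labels do not say which litters they came from, so that p-values measure the spread between these samples. Symbols of 22750 of 24062 rows matched GENCODE M21, which gave positions and exon lengths (mm10). RefSeq gave promoters for 5 of the 6 genes. Same-numbered libraries did not deviate together in every pair, so the comparison was not paired.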

Additional observations from a re-analysis of the deposited data

Results flagged for a closer look

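Over the 18 groups of 5 values examined (6 genes and 3 ratios in 2 genotypes), 2 held a library whose gap to its nearest neighbour took up more of the group's range than Dixon's 95% limit of 0.71, where chance gives about 1 in 20. Slc2a1 in WT replicate 3 was at 2.98 log2 CPM, and the next WT library was at 3.61. The log2 ratio of Slc5a1 over Slc2a5 in KSR23 replicate 1 was 5.03, and the next KSR23 library was at 4.53.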

How the results depend on the processing

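The 4 passing genes (Slc5a1, Slc2a1, Slc2a2 and Khk) kept their direction in every setting run and passed under the quasi-likelihood F test, DESeq2, RLE factors, library totals without TMM factors, both other filters, thinned counts and each fit without 1 library. The exceptions were the fits with replicates 1 to 3 alone and the block with the quasi-likelihood F test. Genes that passed numbered 3261, and 579 with replicates 1 to 3 alone or 140 there with the quasi-likelihood F test, a combination chosen after seeing the data, as was its use with the replicate block (1184). Genes of the 6 that passed went from 4 to 1, 1 and 2 in these settings. The first pair of these has fewer samples, and the third changes the block and the test together, each of which kept 4 when changed alone. The cause was not tested. With replicates 1 to 3 alone the log2 fold changes were 1.29 for Slc5a1 (adjusted p = 0.217 and 0.338 by the 2 tests), -1.76 for Slc2a2 (0.197 and 0.351) and -1.02 for Khk (0.423 and 0.443), and the ratios differed by 3.37, 2.02 and 1.35 (exact permutation adjusted p = 0.100, the smallest possible).

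Same-numbered libraries had correlations of deviations from -0.69 to 0.41 over 5 pairs, so the numbers do not pair the samples. Under the replicate block 2202 genes passed the likelihood ratio test. With the block and the quasi-likelihood F test Slc5a1 had 1.08 (adjusted p = 0.112) and Khk -1.24 (0.0735). Pairing the libraries by number leaves the mean differences of the ratios as they were by arithmetic (3.19, 1.961 and 1.23). Only the p can change (exact sign-flip permutation p = 0.0625, the smallest possible).

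Slc2a5, at 0.00, took the other sign with DESeq2 (-0.0351), RLE factors (-0.0351), no TMM factors (-0.150), 5 counts in every library (-0.0241), the replicate block (-0.139 with either test) and thinned counts (-0.00838), and ran from -0.12 to 0.27 without 1 library. Leaving out 1 library gave 2370 to 3802 genes, 4 of the 6 genes each time, and log2 fold changes of 1.03 to 1.36 for Slc5a1, 2.60 to 2.94 for Slc2a1, -2.22 to -1.55 for Slc2a2, 0.12 to 0.58 for Slc2a3 and -1.32 to -0.91 for Khk. The ratios ran from 2.89 to 3.42, 1.61 to 2.15 and 1.11 to 1.28. Without TMM factors 1414 genes were higher and 1858 lower, against 1716 and 1545, and the median log2 fold change of all genes was -0.03 in place of 0.03. Without WT replicate 2 it was 0.11. Tkfc (Dak) was at -0.0116 without TMM factors and ran from -0.00144 to 0.364 without 1 library. Of 20 other listed genes that passed, 17 did not pass with replicates 1 to 3 alone, 19 there with the quasi-likelihood F test, 8 under the replicate block, 13 there with the quasi-likelihood F test, 3 with the quasi-likelihood F test on all libraries, 1 each with DESeq2, RLE factors or no TMM factors, and at most 5 without 1 library.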

Other observations

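Of 6 endothelial markers Cdh5 fell (log2 fold change -0.97, edgeR likelihood ratio adjusted p = 0.00813). The summed CPM was 115 to 174 in WT and 125 to 193 in KSR23. By the likelihood ratio test 9.73% of all genes rose and 8.76% fell. Of 6 leukocyte and myeloid markers Cd68 fell (log2 fold change -1.06) and Itgam (1.014) passed the likelihood ratio test but not the quasi-likelihood F test (adjusted p = 0.0521), with sums of 653 to 771 and 505 to 695 CPM. Neutrophil markers summed to 4.20 to 12.5 CPM in WT and 4.30 to 12.1 CPM in KSR23, and the one that passed the likelihood ratio test, Elane, was at 0 counts in every WT library and failed the quasi-likelihood F test (adjusted p = 0.0838). Enteric neuron and glia markers summed to 38.1 to 56.7 and 32.0 to 37.6 CPM, and of these 6 genes 0 passed the likelihood ratio test of edgeR, 1 the quasi-likelihood F test, 1 DESeq2 and 1 an unadjusted p under 0.05. Erythroid markers, read because red cells can carry GLUT1, summed to 11.3 to 51.5 CPM in WT and 19.0 to 58.7 CPM in KSR23, and of the 4 tested 0 passed edgeR, DESeq2 or an unadjusted p under 0.05, with Hbb-bt and Hba-a1 at 0 counts in all libraries. Of 3 beta cell markers tested Iapp fell (log2 fold change -1.27), and the sums were 5.32 to 7.96 and 4.37 to 13.3 CPM. Of 5 proximal markers Cybrd1 fell (log2 fold change -1.71), and of 3 distal markers tested Slc10a2, with 0 to 9 counts in a WT and 5 to 42 in a KSR23 library, passed the likelihood ratio test (adjusted p = 0.0384) but not the quasi-likelihood F test (0.0923) or replicates 1 to 3 alone (0.519).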
